A study of Mus musculus with 491 samples.

Results

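The 9 genes described here carry out the handling of retinoic acid, the vitamin A derivative that patterns the hindbrain and the otic vesicle of the embryo. Stra6 takes up retinol, Rdh10, Aldh1a2 and Aldh1a3 make retinoic acid from it, Crabp1 and Crabp2 bind it, and Cyp26a1, Cyp26b1 and Cyp26c1 break it down. They were chosen by name and not from their values, though earlier results of these data were known. The choice was from the 19494 genes of a table of single-cell transcriptomes, and the 9 genes were read in all 491 cells. The question was which cell types of the tissue in and around the ear primordium hold transcripts of genes that make, bind or degrade retinoic acid.

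The cells came from E10.5 mouse embryos of the genotype Pax2-Cre/+;Ai14-tdTomato/+, and every cell belonged to the same tdTomato+ group. A cell fluoresces red in this cross if it, or an ancestor, had active Cre recombinase under the Pax2 driver, so the sorted cells are that lineage and do not stand for all cells of the region. The dissected tissue was the otic vesicle with the tissue around it, and each red cell was sorted into its own well of a 96-well plate for cDNA amplification. Replicate 1 held 237 cells and replicate 2 held 254 cells, on 6 plates in all; the labels do not say what sets the replicates apart, and differences between them may be technical. There was no control or mutant group, so cell classes were compared with each other.

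Retinol enters a cell through the membrane receptor Stra6, is oxidised to retinal by Rdh10, and is oxidised again to retinoic acid by enzymes of the Aldh1a family. The acid diffuses between cells, binds nuclear receptors, and is cleared in cells that hold Cyp26 enzymes, so that neighbouring sources and sinks set up gradients. In the developing ear, retinoic acid is known for its part in the posterior identity of the otic vesicle, where the transcription factor Tbx1 is also known to act.

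Cyp26c1 and Cyp26a1 are neighbours on the same strand of mouse chromosome 19 in GRCm38 (GENCODE M21), with 4399 bases and 0 protein-coding genes between them. Cyp26c1 lies at 37685581 to 37693398 and Cyp26a1 at 37697798 to 37701536. The stretches just upstream of both are shown because transcripts of these neighbours were found in the same cells of the otic epithelium, as described further on. They are RefSeq promoter sequences (GRCm38.p6, strand +), cut at the base before the annotated gene, at chr19:37697558-37697797 for Cyp26a1 and chr19:37685430-37685580 for Cyp26c1.
Cyp26a1 upstream: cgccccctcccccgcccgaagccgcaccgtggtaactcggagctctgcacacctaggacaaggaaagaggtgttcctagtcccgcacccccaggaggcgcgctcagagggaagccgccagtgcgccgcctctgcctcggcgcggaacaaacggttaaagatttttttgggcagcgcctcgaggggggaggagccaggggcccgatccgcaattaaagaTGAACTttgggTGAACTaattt
Cyp26c1 upstream: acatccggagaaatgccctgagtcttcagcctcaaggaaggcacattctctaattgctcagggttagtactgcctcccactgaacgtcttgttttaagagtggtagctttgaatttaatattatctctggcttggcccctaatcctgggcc
Capitals mark a direct repeat of the kind bound by retinoic acid receptors. The search took any pair of the half-site AGGTCA, in which G could also stand as the first letter and T in place of the G before TCA, in the same direction with 5 bases between them, on both strands; the repeat above is read on the minus strand, which is why its printed letters are the reverse complement. It lay 32 to 16 bases before the RefSeq start of Cyp26a1. Of the 9 genes, 6 had a promoter sequence of 250 bases before the start, and 1 of the 6, Cyp26a1, held the repeat, as did 32 of 32544 promoters in all (0.0983%). With a spacer of 2 bases the repeat was in 0.270% of all promoters, with a spacer of 1 base in 0.224%, and with either spacer in 0 of the 6.

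The remaining genes lie on other chromosomes or apart, also in GRCm38. Rdh10 is at chromosome 1, 16105774 to 16133734 (+), and Aldh1a3 at chromosome 7, 66390890 to 66427517 (-). Crabp2 is at chromosome 3, 87948666 to 87953376 (+), and Cyp26b1 at chromosome 6, 84571414 to 84593908 (-). Crabp1 (54764748 to 54773110), Stra6 (58063788 to 58153996) and Aldh1a2 (71215789 to 71296243) are all on chromosome 9 (+). Stra6 overlaps Ccdc33 and Gm16131, and Aldh1a2 overlaps the pseudogene Gm48124. The counting is not stated to use strand, so reads of the overlapping genes cannot be told apart.

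Cells fell into 10 clusters on 102 marker genes, none of them among the 9 genes, and the clusters were named from those markers as 8 classes. The largest were 142 otic epithelium-like cells (clusters 1 and 3) and 122 neural tube progenitor-like cells (clusters 0 and 7). There were also 61 differentiating neuron-like, 41 surface ectoderm-like, 23 mesenchyme-like and 22 early neuroblast-like cells. The Dll3 neuronal cluster, of 47 cells, is named after Dll3, a marker among its leading genes. The class of the remaining 33 cells is not described here, but its cells are in the totals, in the fit and in the mean of the other classes. Oc90, a secreted protein gene of the otic epithelium, was found in 86.8% of cluster 3 and 40.4% of cluster 1. A gene is called found in a cell at an FPKM (fragments scaled by transcript length and library size) of 1 or more, and levels are means of log2(FPKM + 1). Cells had 2552 to 6403 genes found (median 4513), with class medians between 4149 in the Dll3 cluster and 5215 in the mesenchyme-like cells, and the depth in reads is unknown. Wells with the same column number shared rare transcripts at 38 pairs of plate and row positions, most of them adjacent rows of a plate and some on different plates, and the receiving well held a median of 3.89% of the level in its source well (quartiles 2.53% and 6.89%). This touched 337 cells, and 154 cells had no such source. Results are therefore also given in the cells without a source, and after a correction for transfer. The correction set a value to 0 where it was at most 3 times the transfer estimated from the source well. Above that it subtracted the estimated transfer, so it can remove more than the source accounts for. A further 7 cells held most of the markers of endothelium (3 cells) or macrophages (4 cells).

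Across the table the carriers were common and the enzymes were rare. Crabp2 was found in 475 of 491 cells and Crabp1 in 376, whereas Stra6 was found in 111, Cyp26b1 in 87, Rdh10 in 84, Cyp26a1 in 56, Cyp26c1 in 30, Aldh1a3 in 28 and Aldh1a2 in 9. After correction for transfer the counts were 427 and 299 for the carriers Crabp2 and Crabp1, 92 for Stra6, 73 for Cyp26b1, 61 for Rdh10, 40 for Cyp26a1, 22 for Aldh1a3, 19 for Cyp26c1 and 6 for Aldh1a2. Every gene except Aldh1a2 was found in at least 5% of cells and entered the tests, which compared class means per replicate in limma with a replicate block over 10160 genes. Such a difference is called when its Benjamini-Hochberg adjusted p is below 0.05.

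**Figure D1:**
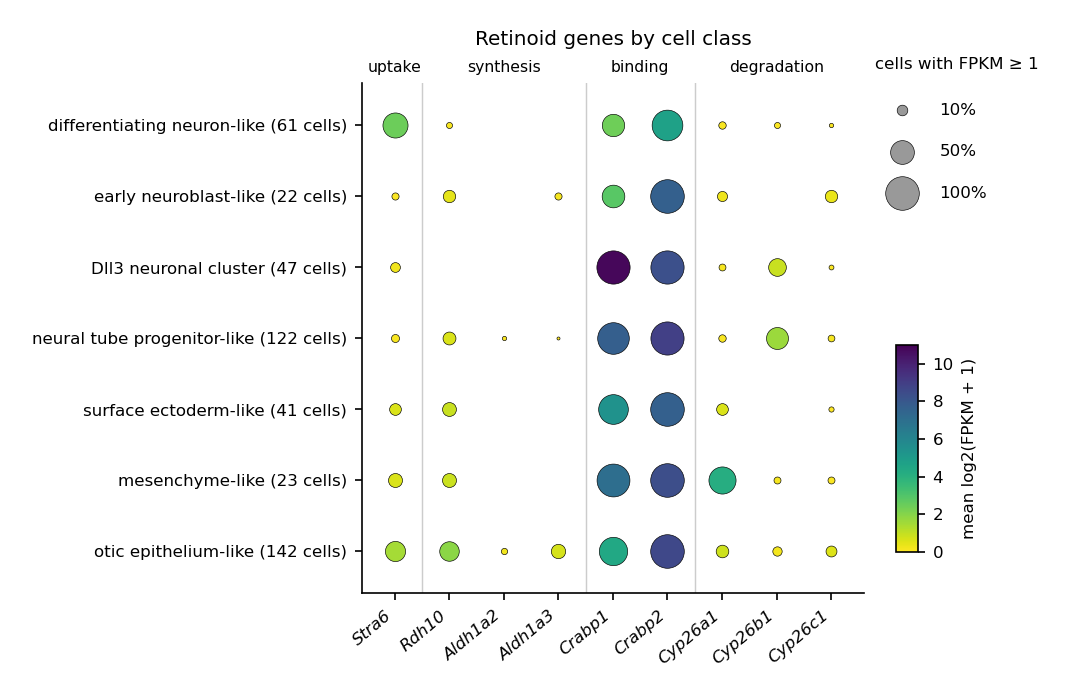
Dots show the 9 genes (columns, ordered by role) in 7 cell classes (rows, with their number of cells). Dot area is the percent of cells with an FPKM of at least 1 and colour is the mean log2(FPKM + 1); no dot means that the gene was found in 0 cells. Crabp1 and Crabp2 have dots in every class, Aldh1a3 has its largest dot in the otic epithelium-like row (18.3%), and Cyp26a1 in the mesenchyme-like row (65.2%).

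Stra6, the retinol receptor, was found most often in differentiating neuron-like and otic epithelium-like cells. Of 61 differentiating neuron-like cells 34 held it (55.7%, exact 95% interval 42.4 to 68.5%), with values in those cells from 1.77 to 125 FPKM and a median of 23.7. In the otic epithelium-like class 51 of 142 cells held it (35.9%, 28.0 to 44.4%), at a median of 15.6 FPKM. It was further held by 1 of 22 early neuroblast-like cells, 7 of 122 neural tube progenitor-like cells, 4 of 47 cells of the Dll3 cluster, 5 of 41 surface ectoderm-like cells and 4 of 23 mesenchyme-like cells. The replicate means were 2.83 and 2.14 in the differentiating neuron-like class and 1.35 and 1.63 in the otic class, so these classes did not overlap with each other, nor with the mesenchyme-like class (0.95 and 0.27).

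Stra6 was higher in differentiating neuron-like than in early neuroblast-like cells by 2.4 ± 0.32 on the log2 scale (SE; limma adjusted p = 0.000226). It was lower than in otic epithelium in early neuroblast-like cells (-1.41 ± 0.32, limma adjusted p = 0.0191) and in neural tube progenitor-like cells (-1.36 ± 0.32, limma adjusted p = 0.0216). The first of these calls was lost in 2 of 9 alternative fits and the second in 3 of 10, among them the fit in cells without a source well (limma adjusted p = 0.451). Mesenchyme-like minus otic cells was not called (-0.88 ± 0.32, limma adjusted p = 0.159). Neither was surface ectoderm-like minus otic cells (-0.88 ± 0.32, limma adjusted p = 0.193). Otic cells against the mean of the other classes were also not called (0.81 ± 0.25, limma adjusted p = 0.067). The differentiating neuron-like class exceeded the mean of the other classes by 1.94 ± 0.25 (limma adjusted p = 7.2e-05). Among cells without a source well, Stra6 was found in 6 of 19 differentiating neuron-like cells, against 16 of 43 in the otic class. There the difference from the mean of the other classes was 0.16 and not called (limma adjusted p = 0.918, the highest over 10 alternatives, of which the lowest was 3.1e-06). In every fit on cells without a source well, that mean leaves out mesenchyme-like and early neuroblast-like cells, so the comparison is not the same as the main one. After correction for transfer Stra6 was found in 33 of 61 differentiating neuron-like cells and 43 of 142 otic cells. The Stra6 signal of the differentiating neuron-like class also varied by plate, with class means from 0.87 to 3.82.

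Rdh10, which makes the retinal that the Aldh1a enzymes use, was highest in the otic epithelium. Transcripts were in 48 of 142 cells of that class (33.8%, exact 95% interval 26.1 to 42.2%), in those cells at 1.74 to 538 FPKM with a median of 78.4. These 48 cells made up 57.1% of all 84 cells with Rdh10. The class mean exceeded that of the other classes by 1.47 ± 0.34 (SE; limma adjusted p = 0.0138), with replicate means of 1.49 and 2.35. No single class was called lower than otic cells. The limma adjusted p was 0.0815 for early neuroblast-like and 0.145 for neural tube progenitor-like cells. It was 0.248 for mesenchyme-like and 0.337 for surface ectoderm-like cells. Within the otic class Rdh10 was found in 25 of 53 cells of the Oc90-rich cluster 3 and in 23 of 89 cells of cluster 1. The otic call was lost in cells without a source well and without the filter on low values, and the otic class overlapped the surface ectoderm-like class. There, 7 of 41 cells held Rdh10 and all 7 were of replicate 1 (mean 1.85, against 0.00 in replicate 2). In neural tube progenitor-like cells it was found in 18 of 122, and in 9 after correction; 8 of the 18 were on plate 3. In the Dll3 cluster it was found in 0 of 47 cells; 3 counts of these cells, the limit used wherever a gene was found in 0 cells, allow a share of up to 6.38%.

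Aldh1a3, which makes retinoic acid from retinal, was found in 28 cells, 26 of them otic. These were 26 of the 142 otic epithelium-like cells (18.3%, exact 95% interval 12.32 to 25.67%), at 1.42 to 139 FPKM and a median of 10.54; the other cells were 1 early neuroblast-like and 1 neural tube progenitor-like cell. Differentiating neuron-like, Dll3, surface ectoderm-like and mesenchyme-like cells had 0 with it, with upper limits between 4.92% in differentiating neuron-like cells and 13.04% in mesenchyme-like cells; limits and intervals cover counting error only. The replicate means in the otic class were 0.72 and 0.68, higher than the rest by 0.68 ± 0.11 (SE; limma adjusted p = 0.000583), a call lost in cells without a source well (difference 0.39, limma adjusted p = 0.317). Mesenchyme-like minus otic cells gave -0.70 ± 0.14 (limma adjusted p = 0.00555), and this call held in each of the 9 alternative fits that could be made, which do not include cells without a source well. Surface ectoderm-like, neural tube progenitor-like and early neuroblast-like cells were also lower than otic cells, by -0.70, -0.68 and -0.56. Each of these 3 calls was lost in 1 alternative fit, the first and the second in cells without a source well (limma adjusted p = 0.57 and 0.809) and the third with cell weights (limma adjusted p = 0.0755). After correction 21 otic cells and 1 early neuroblast-like cell remained. Among otic cells without a source well, 3 of 43 held it, a smaller share than in the whole class.

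Aldh1a2, the enzyme best known from the trunk and the mesenchyme around the ear, was close to the floor. There were 9 cells with it, 5 of them otic (25.2 to 437 FPKM, median 46.8) and 2 neural tube progenitor-like. None of the 23 mesenchyme-like cells held it, which allows a share of up to 13.04%, and with so few cells it was not tested. At least 1 of Rdh10, Aldh1a2 and Aldh1a3 was in 66 of the 142 otic cells (46.5%), against 18 of 122 neural tube progenitor-like cells (14.8%) and 0 of 47 cells of the Dll3 cluster. Of the 30 otic cells with an Aldh1a enzyme, 12 also held Rdh10.

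**Figure D2:**
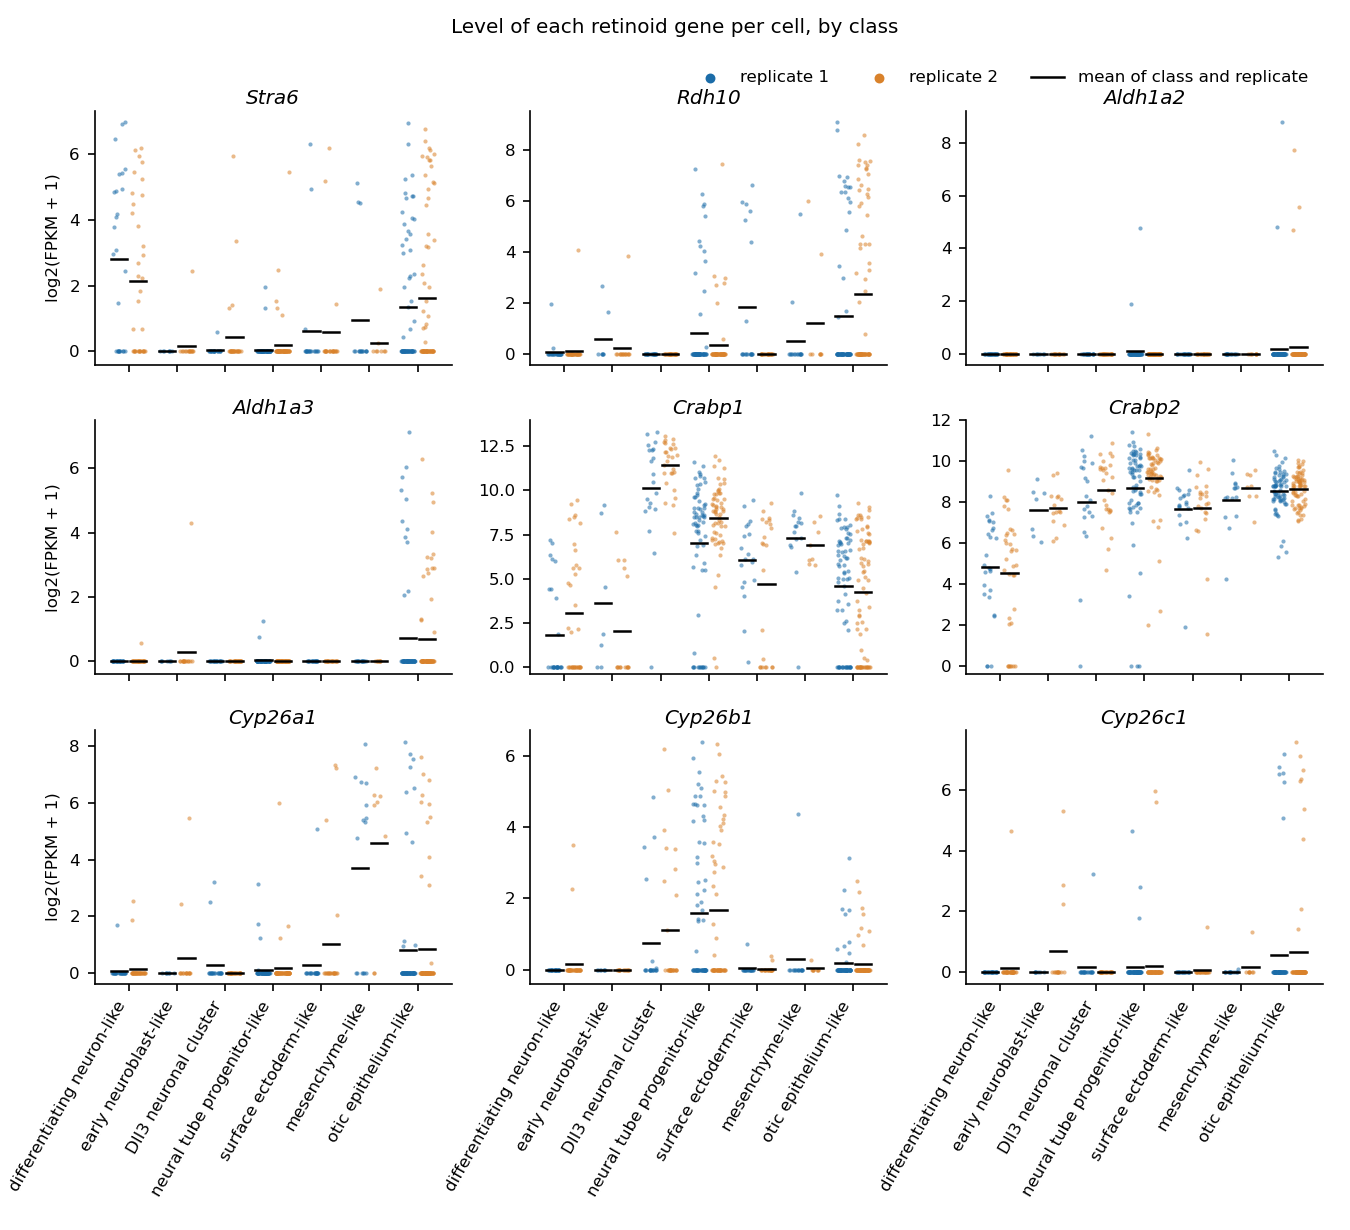
Each panel is a gene and each point a cell, with the class on the horizontal axis, log2(FPKM + 1) on the vertical axis, a scale of its own per panel, and colour for the replicate; the points are spread sideways for view and black lines are the means of a class and replicate. Rdh10 reaches 538 FPKM in otic epithelium-like cells, and cells with Crabp1 have the highest median, 3241 FPKM, in the Dll3 neuronal cluster, where their range overlaps that of neural tube progenitor-like cells (up to 3877 FPKM).

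The binding proteins differed in where they were high. Crabp1, a carrier that holds retinoic acid in the cytoplasm, had its highest level in the Dll3 cluster, with 85.2 to 10005 FPKM in the 46 of 47 cells that held it and a median of 3241. The replicate means there were 10.16 and 11.43. The next class, neural tube progenitor-like, had means of 7.0 and 8.44 with Crabp1 found in 108 of 122 cells. The lowest were differentiating neuron-like cells (1.82 and 3.07, found in 27 of 61) and early neuroblast-like cells (3.65 and 2.04, found in 10 of 22), which overlapped. Crabp1 is among the 10 leading genes of the Dll3 cluster by fold, although it was not used to form it.

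The Dll3 cluster exceeded the other classes by 5.59 ± 0.48 in Crabp1 (SE; limma adjusted p = 1.15e-06). Differentiating neuron-like cells were lower than the rest by a log2 difference of -3.95 ± 0.48 (limma adjusted p = 5.22e-05) and early neuroblast-like cells by -3.49 ± 0.48 (limma adjusted p = 0.000358); these 3 calls held in every alternative fit. Neural tube progenitor-like cells exceeded otic cells by 3.3 ± 0.63 (limma adjusted p = 0.00458), a call lost without the filter on low values (limma adjusted p = 0.0525), and mesenchyme-like cells exceeded otic cells by 2.67 ± 0.63 (limma adjusted p = 0.0199), a call lost in 3 of 9 alternative fits, among them the one after correction for transfer (limma adjusted p up to 0.559). After correction Crabp1 was found in 68 otic cells, against 101 as deposited, and in 11 differentiating neuron-like cells, against 27.

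Crabp2, the carrier that passes retinoic acid to its nuclear receptors, was found in all 142 otic, 41 surface ectoderm-like, 23 mesenchyme-like and 22 early neuroblast-like cells. Replicate means were highest in neural tube progenitor-like cells (8.69 and 9.18), followed by otic cells (8.57 and 8.67). They were lowest in differentiating neuron-like cells (4.83 and 4.56), which did not overlap with any other class. Differentiating neuron-like minus early neuroblast-like cells gave -2.99 ± 0.30 (SE; limma adjusted p = 2.12e-05). The class minus the rest gave -3.33 ± 0.23 (limma adjusted p = 1.71e-07), and both calls held in every alternative fit. Neural tube progenitor-like and otic cells were above the rest by 1.51 ± 0.23 and 1.15 ± 0.23, and both calls were lost in cells without a source well (limma adjusted p = 0.198 and 0.0781). In differentiating neuron-like cells Crabp2 was found in 51 of 61 cells and, after correction, in 32.

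The degrading enzymes were most frequent in different classes. Cyp26a1 was found in 15 of 23 mesenchyme-like cells (65.2%, exact 95% interval 42.7 to 83.6%), at 26.3 to 273 FPKM with a median of 65.3, and all 15 remained after correction. In the otic class 20 of 142 cells held it, at a median of 70.1 FPKM, and the next class, surface ectoderm-like, held it in 5 of 41. Replicate means in the mesenchyme-like class were 3.69 and 4.57, above the otic means of 0.81 and 0.84. The difference from otic cells was 3.3 ± 0.31 (SE; limma adjusted p = 5.16e-06) and that from the mean of the rest 3.78 ± 0.23 (limma adjusted p = 2.33e-08). The second call held in every alternative fit. The difference from otic cells was 2.05 and not called where the log2 of the mean FPKM was used.

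Cyp26b1, the enzyme that clears retinoic acid in the hindbrain, was found mainly in neural classes. Transcripts were in 52 of 122 neural tube progenitor-like cells (42.6%, exact 95% interval 33.7 to 51.9%; 1.43 to 83.5 FPKM, median 15.8) and in 13 of 47 cells of the Dll3 cluster. Replicate means were 1.59 and 1.68 in the neural tube class and 0.74 and 1.13 in the Dll3 cluster, and did not overlap. Otic cells held it in 11 of 142, at a median of 2.28 FPKM and in 5 cells after correction. Surface ectoderm-like and early neuroblast-like cells held it in 0 of 41 and 0 of 22. Neural tube progenitor-like cells exceeded otic cells by 1.46 ± 0.20 (SE; limma adjusted p = 0.000266) and the rest by 1.35 ± 0.15 (limma adjusted p = 5.21e-05), and both calls held in every alternative fit. Within the class it was found in 43 of 90 cells of cluster 0 and in 9 of 32 cells of cluster 7, which Msx1 and Olig3 lead.

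Cyp26c1, the rarest of the degrading enzymes here, had transcripts in 15 of 142 otic epithelium-like cells (10.56%, exact 95% interval 6.03 to 16.8%; 1.68 to 192 FPKM, median 80.1) and in 14 of these after correction. Its replicate means in the otic class were 0.56 and 0.65. In the neural tube progenitor-like class it was found in 5 of 122 cells, in the early neuroblast-like class in 3, and in the differentiating neuron-like, Dll3, surface ectoderm-like and mesenchyme-like classes in 1 cell each. In the order of all 8 classes, neighbours overlapped at every step, and 0 of 12 comparisons were called. Otic cells against the rest gave 0.45 ± 0.14 (SE; limma adjusted p = 0.0872), and 3 of 10 alternative fits called it, with adjusted p-values between 0.000722 and 0.404 over the 10. Its otic cells stood in cluster 1 (14 of 89) more than in cluster 3 (1 of 53), and so did those of Cyp26a1 (18 of 89 and 2 of 53). In all, a Cyp26 enzyme was found in 15 of 23 mesenchyme-like cells, 58 of 122 neural tube progenitor-like cells (47.5%), 15 of 47 cells of the Dll3 cluster (31.9%) and 33 of 142 otic epithelium-like cells (23.2%).

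The counts of called members stand here beside the share of all genes tested that were called, and 8 tested genes are few. In otic cells against the rest 4 of 8 were called (Rdh10, Aldh1a3 and Crabp2 higher, Crabp1 lower), where 5.82% of all genes tested were. The Crabp1 call there (-1.69, limma adjusted p = 0.0469) was lost in 6 of 10 alternative fits, with adjusted p-values up to 0.224. In differentiating neuron-like cells 4 of 8 were called, where 5.08% were, with Stra6 higher and Crabp1, Crabp2 and Cyp26a1 lower; the Cyp26a1 call was lost in 5 of 10 alternatives. In the Dll3 cluster 4 of 8 were called (Crabp1, Crabp2 and Cyp26b1 higher, Cyp26a1 lower), where 19.5% of all genes were, and the Crabp2 call was lost in 5 of 10. In neural tube progenitor-like cells 3 of 8 were called (Crabp1, Crabp2 and Cyp26b1, all higher) where 3.59% were, the Crabp1 call being lost in 5 of 10, and in mesenchyme-like cells 2 of 8 where 15.4% were. In early neuroblast-like cells 1 of 8 was called where 6.09% were, and in surface ectoderm-like cells 0 of 8 where 8.84% were. Between pairs of classes, 2 of 8 were called in early neuroblast-like minus otic cells (3.81% of all genes), 4 in neural tube progenitor-like minus otic (4.2%), 1 in surface ectoderm-like minus otic (3.47%), 3 in mesenchyme-like minus otic (4.96%) and 2 in differentiating neuron-like minus early neuroblast-like cells (5.35%). The median over the 8 genes was 0.56 in otic cells against the rest, and 0.10 over all genes.

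**Figure D3:**
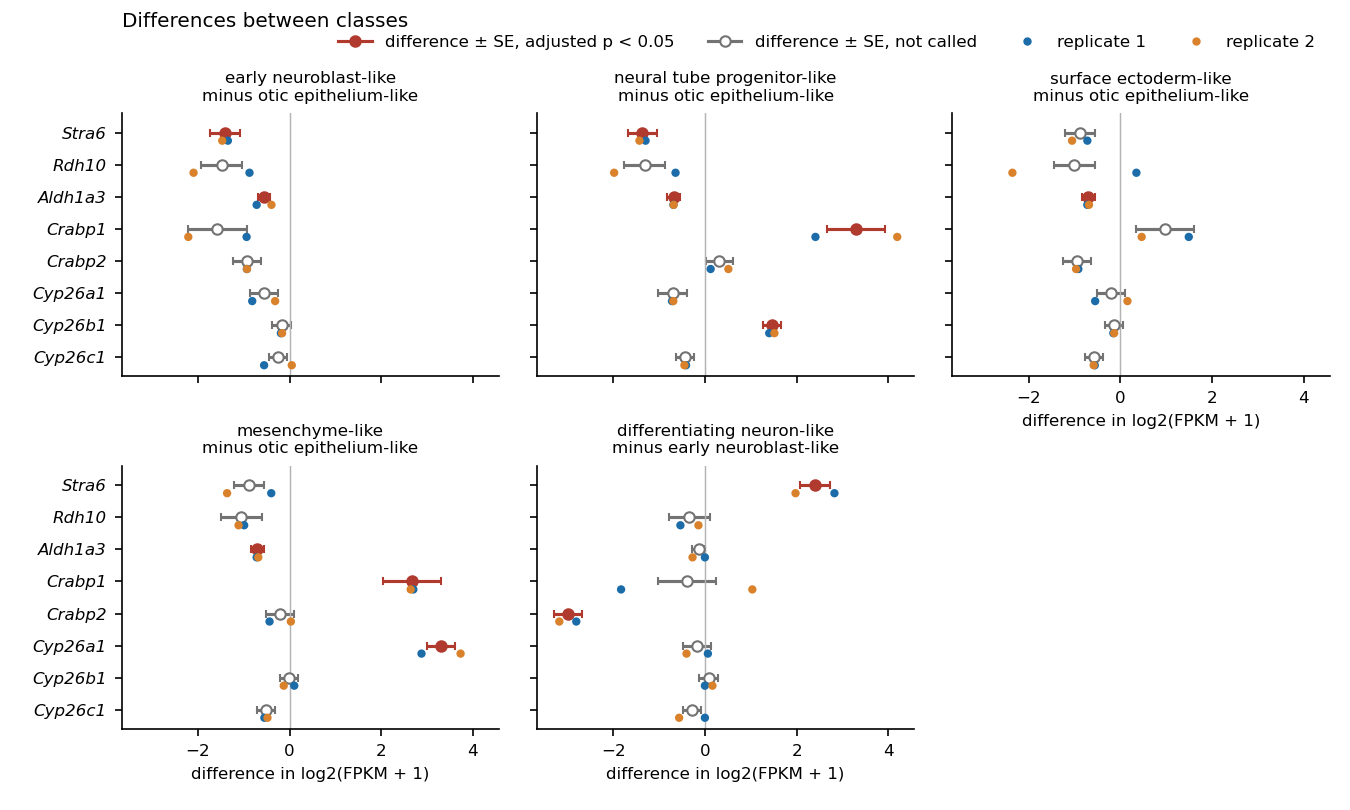
Rows are the 8 tested genes and the 5 panels are pairs of classes; the large point is the difference in log2(FPKM + 1), first named class minus the second, with its standard error, filled where the adjusted p is below 0.05, and the small points are the replicates. Among these pairs Cyp26a1 in mesenchyme-like minus otic epithelium-like cells and Crabp1 in neural tube progenitor-like minus otic epithelium-like cells lie farthest to the right (3.3 each) and Crabp2 in differentiating neuron-like minus early neuroblast-like cells farthest to the left (-2.99).

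Inside the otic epithelium, Cyp26a1 and Cyp26c1 were more frequent in cells with Tbx1, and Rdh10 and Stra6 in cells without it. Tbx1 is the gene of a transcription factor of the posterior and lateral otocyst, and the counts are descriptions with no test. Cyp26a1 was found in 16 of 63 cells with Tbx1 and in 4 of 79 without. Cyp26c1 was found in 14 of 63 with Tbx1 and in 1 of 79 without. The direction was the same in both replicates, with Cyp26a1 in 7 of 32 and 9 of 31 cells with Tbx1 against 2 of 37 and 2 of 42 without, and Cyp26a1 was more frequent in the cells with Tbx1 on 6 of 6 plates. The synthesis gene Rdh10 went the other way, in 14 of 63 cells with Tbx1 and 34 of 79 without, though on plates 1 and 2 its share was higher with Tbx1. Stra6 was found in 16 of 63 with Tbx1 and 35 of 79 without, and was less frequent with Tbx1 on 6 of 6 plates. Aldh1a3 was found in 14 of 63 cells with Tbx1 and 12 of 79 without, and Aldh1a2 in 4 of 63 and 1 of 79. Genes found per cell had medians of 4732 with Tbx1 and 4786 without.

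The otic cells were split further by Dlx5, a transcription factor gene of the dorsal otocyst. This joint split was chosen after its values were seen. Of 20 cells with Tbx1 and without Dlx5, 11 held Cyp26a1 and 11 held Cyp26c1, while 3 held Rdh10 and 3 held Stra6. Of 53 cells with Dlx5 and without Tbx1, 2 held Cyp26a1 and 0 held Cyp26c1, while 29 held Rdh10 and 27 held Stra6. Cells with both genes (43) lay between, with Cyp26a1 in 5, Cyp26c1 in 3, Rdh10 in 11 and Stra6 in 13, and they held Aldh1a3 in 12 and Cyp26b1 in 8. Cells with neither gene (26) held Cyp26a1 in 2, Cyp26c1 in 1, Rdh10 in 5 and Stra6 in 8. The cells with Tbx1 alone showed this in each replicate, with Cyp26a1 in 6 of 10 and 5 of 10. Split on corrected values, Cyp26c1 was in 11 and Cyp26a1 in 10 of 19 cells with Tbx1 alone, while Rdh10 and Stra6 were each in 23 of 49 cells with Dlx5 alone. In the 43 otic cells without a source well, Cyp26a1 was in 4 of 16 cells with Tbx1 and 0 of 27 without, and Rdh10 in 2 of 16 and 11 of 27. Cells without a source well held Cyp26c1 in 3 of 5 cells with Tbx1 alone and 0 of 14 with Dlx5 alone.

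The splits by 5 further regional genes, Dlx5 alone among them, were also read as counts. With Dlx5 found, 40 of 96 cells held Rdh10 and 23 held Aldh1a3, against 8 and 3 of 46 without it. Cyp26a1 was in 7 of 96 with Dlx5 and 13 of 46 without, and Cyp26c1 in 3 and 12. Genes found per cell were somewhat higher with Dlx5, at medians of 4850 and 4592. Lmx1a, a transcription factor gene of the dorsal otocyst, stood with both kinds of gene, with Rdh10 in 40 of 97 cells with it and 8 of 45 without, and Cyp26a1 in 17 of 97 and 3 of 45. Oc90 gave Rdh10 in 32 of 82 cells with it and 16 of 60 without, and Cyp26a1 in 8 of 82 and 12 of 60. The neurosensory gene Sox2 gave Cyp26a1 in 9 of 84 and 11 of 58 and Rdh10 in 25 of 84 and 23 of 58, at medians of 4980.5 and 4528 genes found. Lfng, a gene of the neurosensory region, was found in 20 otic cells, of which 6 held Rdh10 and 1 held Cyp26a1.

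**Figure D4:**
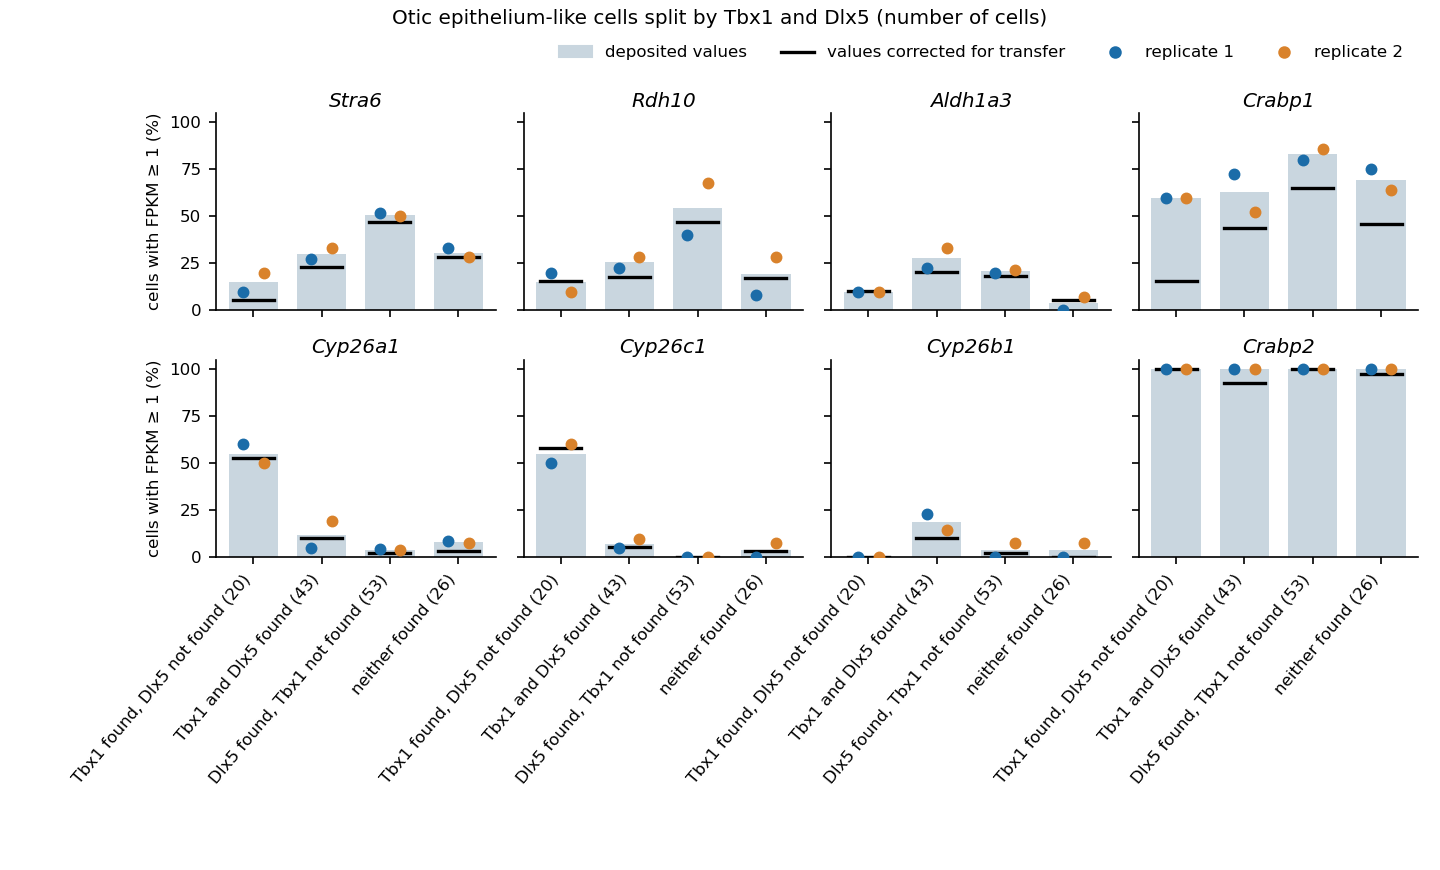
Bars give the percent of otic epithelium-like cells with an FPKM of at least 1 for 8 genes, in cells split by whether Tbx1 and Dlx5 were found (number of cells in brackets), with points for the replicates. The black line repeats the split on values corrected for transfer, where the groups hold 19, 39, 49 and 35 cells from left to right. Cyp26a1 and Cyp26c1 peak in the cells with Tbx1 alone (55% each), and Rdh10 and Stra6 in the cells with Dlx5 alone (54.7% for Rdh10).

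The neighbours Cyp26a1 and Cyp26c1 were found together in 12 otic cells, 60% of the 20 cells with Cyp26a1 and 80% of the 15 with Cyp26c1. There were 5 such cells in replicate 1 and 7 in replicate 2, and 11 after correction. In the mesenchyme, where Cyp26a1 was found in 15 cells, Cyp26c1 was found in 1 of them. Stra6 accompanied Rdh10 in 26 otic cells (54.2% of the 48 with Rdh10 and 51.0% of the 51 with Stra6), but stood with Cyp26a1 in 2 and with Cyp26c1 in 1. A synthesis gene and a Cyp26 gene were found together in 13 of the 66 otic cells with a synthesis gene (19.7%), and in 7 of the 30 with an Aldh1a enzyme, where a Cyp26 gene was in 33 of all 142 otic cells (23.2%). Of the 36 pairs of the 9 genes these are 4, read as counts with no test.

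In the neural tube, Cyp26b1 and Crabp1 were read against the Hox genes, which mark position along the hindbrain. Hoxb2 was found in 88 and Hoxa2 in 75 of the 122 neural tube progenitor-like cells. Cyp26b1 was found in 51 of 108 cells with any Hox gene of groups 1 to 4 and in 1 of 14 without one. A split on the Hox genes of groups 3 and 4, chosen after the values were seen, gave Cyp26b1 in 30 of 50 cells with such a gene and 22 of 72 without. By replicate these were 14 of 24 and 16 of 26 with, against 14 of 40 and 8 of 32 without, and on corrected values 26 of 47 against 22 of 75. Crabp1 was found in 46 of 50 and 62 of 72. Median genes found were 4310.5 and 4279.5 in these groups.

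Other genes of the pathway were read from lists, as counts and medians. On the list of other retinol and retinal dehydrogenases and reductases, Aldh1a1 has 2 rows under its identifier and was not tested. Its first row was found in 27 cells, 23 of them otic epithelium-like. Of the 10 tested genes of this list, 0 were higher and 0 lower in otic cells than in the rest. The list median was 0.21, against 0.10 for all genes. In mesenchyme-like cells 2 were higher and 0 lower, Adh5, a broadly expressed alcohol dehydrogenase, by 0.98 ± 0.26 (SE; limma adjusted p = 0.017) and Rdh13, a retinol dehydrogenase, by 0.80 ± 0.20 (limma adjusted p = 0.0154). The same genes were the 2 lower and 0 higher in early neuroblast-like cells, Adh5 with a log2 difference of -1.10 ± 0.26 (limma adjusted p = 0.0195) and Rdh13 with -0.71 ± 0.20 (limma adjusted p = 0.0477). The Dll3 cluster had 1 higher, Rdh5, by 0.53 ± 0.17 (limma adjusted p = 0.0352). Surface ectoderm-like cells also had 1 higher, Dhrs3, which reduces retinal to retinol, by 0.63 ± 0.19 (limma adjusted p = 0.0485). Of the retinol uptake and transport list, 7 of 17 genes were tested, and surface ectoderm-like cells against the rest had 2 higher and 0 lower, with a list median of 0.40 against -0.09 for all genes. They were the endocytic receptor genes Lrp2, by 0.69 ± 0.14 (limma adjusted p = 0.00293), and Lrp1, by 0.69 ± 0.19 (limma adjusted p = 0.0266). Of all genes tested, 15.4% were called in mesenchyme-like cells, 19.5% in the Dll3 cluster, 8.84% in surface ectoderm-like cells and 6.09% in early neuroblast-like cells, so the 2 of 10 in mesenchyme-like cells is near the share of all genes.

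Receptors were read in the same way. Of 18 tested receptors and cofactors 1 was higher in otic cells than in the rest and 0 were lower, with a list median of -0.02. This count is near the 5.82% of all genes tested that were called there. The higher gene was Rxrg, a retinoid X receptor gene, with 0.94 ± 0.15 (SE; limma adjusted p = 0.000622), found in 31 of 142 otic cells. In mesenchyme-like cells 3 were higher and 1 lower, 4 of 18 where 15.4% of all genes were called, among them Rarg, a retinoic acid receptor gene, by 0.91 ± 0.15 (limma adjusted p = 0.000641), found in 9 of 23. Rara was higher in the Dll3 cluster than in the rest by 1.06 ± 0.29 (limma adjusted p = 0.0179), found in 20 of 47. Of 16 tested genes known to respond to retinoic acid, the Dll3 cluster had 6 higher and 2 lower, where 19.5% of all genes were called (median 0.34, against -0.25 for all genes). Hoxb2 was among the higher, by 3.3 ± 0.36 (limma adjusted p = 1.16e-05), and Meis1 by 2.79 ± 0.34. In otic cells against the rest 2 were higher and 2 lower, where 5.82% of all genes were called (median -0.44, against 0.10). The lower ones were Hoxb2 and Meis1, by -2.0 and -1.72, and the higher ones Tbx1 and Gbx2. The list gives no direction of response for its genes. Its counts and medians therefore do not measure more or less response to retinoic acid, in otic cells or in the Dll3 cluster.

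Genes whose class means most resembled those of the 8 tested genes are given as a description, by Pearson correlation over 16 class by replicate means of 10241 genes; the means share libraries and depth. Aldh1a3 was most like Sox10 (0.99), an otic marker used in the clustering, followed by Col9a3 and Sphk1. Cyp26a1 was most like Tgfbi (0.98), then the mesenchyme markers Prrx1 and Twist1. Crabp1 was most like Hoxb2 (0.91), Reep3 and Hoxa3, and Cyp26b1 like Npas3 (0.93), then Pax6 and Sox1, which are also clustering markers. Stra6 was most like Dpyd (0.88), Tnfaip8l1 and Fgf3, and Rdh10 like Speg (0.87), Slc39a8 and Zscan10. Crabp2 was most like Ppt1 (0.88), Rcn2 and Klf3, and Cyp26c1 like Mettl7a1 (0.85), Aqp11 and Col9a3.

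**Figure D5:**
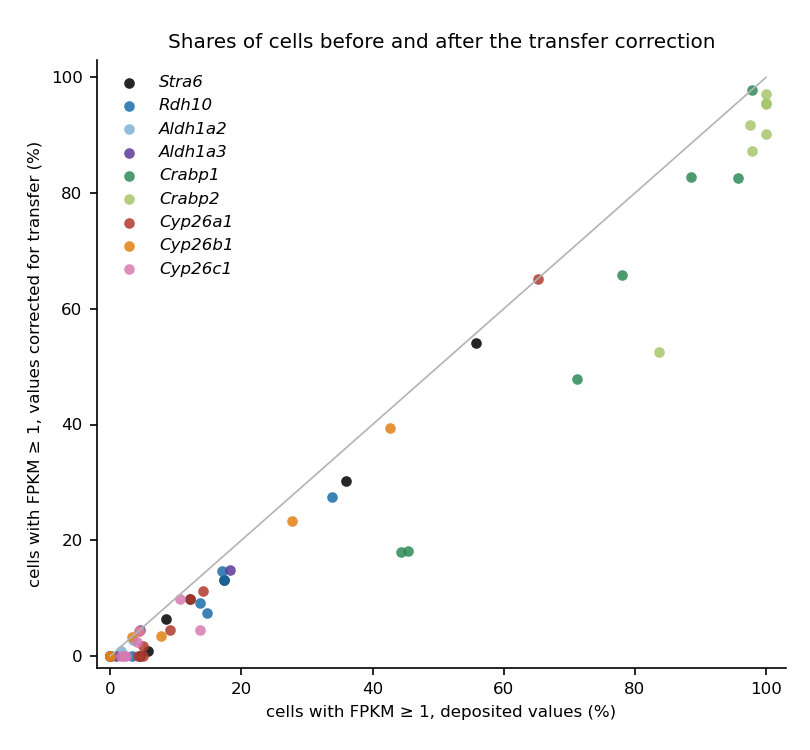
Each point is a gene in a class, coloured by gene, with the percent of cells with an FPKM of at least 1 in the deposited values on the horizontal axis and in the values corrected for transfer between wells on the vertical axis; the line marks equal shares. The point farthest below the line is Crabp2 in differentiating neuron-like cells, with 32 of 61 cells after correction, against 51 of 61 as deposited, and Crabp1 in the same class has 11 of 61 against 27 of 61, whereas Cyp26a1 in mesenchyme-like cells lies on it (65.2%).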

How the data were processed

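Values were measured by SMARTer V3 cDNA amplification and Nextera XT libraries in 491 single cells. The submitters' processing notes name Cufflinks, TopHat, both Bowtie and Bowtie2, SAMtools, cutadapt and FastQC, with build mm10, and state neither an order nor versions. The deposited values were taken as log2(FPKM + 1). Turned back into FPKM, 99.75% of those above 0 held no more than 6 significant digits. Depth in reads is unknown from such values. Of 19659 rows, 19630 identifiers matched a gene name and 19494 genes were used; 74.9% of values were 0.

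Cells were clustered on marker genes with scanpy 1.11.5 (resolution 1, python 3.11.15), and clusters were named from those markers in the same cells. Class means per replicate (8 classes, 2 replicates) were compared in limma 3.58.1 (R 4.3.3) with a replicate block and a trend, for 10160 genes found in at least 5% of cells; 81 markers were left out. P-values are Benjamini-Hochberg adjusted, called below 0.05, and measure only the spread between replicates. The fit was tested on simulated data. Named genes were the 9 genes, the 4 largest called genes per list and comparison with the same sign in both replicates (the text describes some of these), and the 3 most similar genes per gene. Results of 1 cluster of cells and of 1 gene of the retinol transport list are not reported here. No doublet caller was run on these single-cell wells. The alternatives changed the pseudocount, cell summary, scaling, filter, block, weights, transfer, cells and clusters; levels corrected for transfer by class, the joint split by Tbx1 and Dlx5 and the split by Hox groups 3 and 4 were chosen after seeing the data. The members and lists were chosen with earlier results of these data known.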

Additional observations from a re-analysis of the deposited data

Results flagged for a closer look

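Of 25 combinations of a class and a gene found in at least 10 cells, 5 had 1 plate mean far from the other 5 plates; chance flags about 1 in 20. Rdh10 in neural tube progenitor-like cells averaged 1.43 on plate 3. Crabp1 in early neuroblast-like cells averaged 9.19 on plate 1, which held 1 such cell. Crabp1 in the Dll3 cluster averaged 7.93 on plate 2, and Cyp26b1 in the Dll3 cluster averaged 0.0413 on plate 3. Crabp2 in neural tube progenitor-like cells averaged 9.74 on plate 5.

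Aldh1a1, a further retinal dehydrogenase gene outside the 9, has 2 rows under its identifier and was not used in the comparisons. Its first row was found in 27 cells, 23 of them otic epithelium-like and 4 neural tube progenitor-like, at up to 122 FPKM, and its second row in 0 cells.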

How the results depend on the processing

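The 30 calls of the 9 genes in the comparisons given all kept their sign with either replicate left out. Only the sign was read there, without a fit. A call rests on both replicate differences, so a shared sign was close to given in advance for these calls. The number kept was 7 of 20 in cells without a source well, 19 of 30 without the filter on low values, 23 where FPKM was averaged before the log, 26 with log2(FPKM + 0.1), 27 after correction for transfer, 28 without the replicate block, with cell weights or at resolution 1.5, 29 with upper-quartile scaling and 30 without endothelial or macrophage cells. Cells without a source well are few, and comparisons with mesenchyme-like or early neuroblast-like cells could not be fitted there. The mean of the other classes in that fit leaves these classes out.

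Some of the changes in the number of genes called are given here, with the main number last in each case. Comparisons that are not named changed in some settings too. In cells without a source well it was 1 in the Dll3 cluster (4), 2 in differentiating neuron-like cells (4), 2 in neural tube progenitor-like minus otic (4), 1 in neural tube progenitor-like cells (3), 1 in otic cells (4) and 0 in surface ectoderm-like minus otic (1). Without the filter it was 2 in the Dll3 cluster (4), 1 in early neuroblast-like minus otic (2), 2 in early neuroblast-like cells (1), 1 in mesenchyme-like cells (2), 2 in neural tube progenitor-like minus otic (4), 2 in otic cells (4) and 1 in surface ectoderm-like cells (0). With cell weights it was 1 in early neuroblast-like minus otic (2), 1 in mesenchyme-like cells (2), 7 in neural tube progenitor-like minus otic (4), 5 in neural tube progenitor-like cells (3), 7 in otic cells (4) and 4 in surface ectoderm-like minus otic (1). With the log2 of the mean FPKM it was 2 in surface ectoderm-like minus otic (1), where correction for transfer also gave 2. In early neuroblast-like cells (1) it was 3 with log2(FPKM + 0.1) and 2 without cells of other types. The cause was not tested. The replicates share only a number, and without the replicate block 28 of the 30 calls were kept. Over all genes, cell weights gave 2403 calls in otic cells against the rest (main 591), 1873 in neural tube progenitor-like cells (365), 448 in mesenchyme-like cells (1561), 2223 in neural tube progenitor-like minus otic (427), and 1.03% of all genes in early neuroblast-like cells (6.09%). Averaging FPKM before the log gave 761 in mesenchyme-like cells, 47.4% of them higher (main 77.3%). Cells without a source well gave 193 in otic cells and 481 in the Dll3 cluster (1978). The depth in reads is unknown, so a gene not found in a cell may be below detection.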
